A study of Komagataella phaffii with 6 samples.

Results

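GUT1 and GUT2 are the genes for the first steps of glycerol use in Komagataella phaffii, a yeast long known as Pichia pastoris, which grows on glycerol as well as on methanol. They were taken by locus tag as PAS_chr4_0783 (GUT1) and PAS_chr3_0579 (GUT2), 2 of the 5040 genes in the count table, and both passed the filter on low counts. The tested libraries came from cells of strain X-33, genotype WT, moved for 18 h into methanol medium with no nitrogen source (3 libraries). The libraries they were set against came from the same strain moved for 18 h into methanol medium with ammonium sulfate (3 libraries). All cells had first been grown for 40 h in 100 ml of medium whose carbon source was glycerol. No library was taken at the end of the glycerol stage, so the values compare methanol cultures with each other and do not show a change since glycerol.

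In yeasts, glycerol enters metabolism through glycerol kinase, the product of GUT1, which turns glycerol into glycerol-3-phosphate with ATP. Glycerol-3-phosphate dehydrogenase, the product of GUT2, is an FAD enzyme of the mitochondrial inner membrane in Saccharomyces cerevisiae. It oxidises glycerol-3-phosphate to dihydroxyacetone phosphate, an intermediate of glycolysis and gluconeogenesis, and passes the electrons to the respiratory chain. In S. cerevisiae it also takes part in moving the reducing power of cytosolic NADH to the mitochondria, so GUT2 serves cells that are not given glycerol too. Cells on methanol reach dihydroxyacetone phosphate by another route, in which dihydroxyacetone made from formaldehyde is phosphorylated by the kinase DAK2.

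GUT1 was higher without nitrogen and GUT2 did not differ beyond its spread. GUT1 rose 1.78-fold (95% interval 1.48 to 2.16, n = 3 libraries each). No library of one group reached the other, as for 10.3% of all tested genes in this direction. GUT2 stood at 0.908-fold (95% interval 0.753 to 1.09), and its groups overlapped. The intervals of both genes do not meet. Within each library the count of GUT2 was below that of GUT1 without nitrogen and above it with nitrogen.

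The measure behind these values was a raw count of 3' end reads per gene. Library totals ran from 127303 to 395803 counts without nitrogen and from 302395 to 435003 with nitrogen, the lowest being replicate 3 without nitrogen. The labels number the replicates but do not say whether each was grown as its own culture. The library-to-library scatter behind the p-values may therefore be technical. For edgeR, that scatter was drawn almost wholly from a trend over all genes, and hardly from the libraries of the single gene tested. Of 3330 genes tested, 6.34% were called, 122 (3.66%) higher and 89 (2.67%) lower without nitrogen, by edgeR's quasi-likelihood test, at a Benjamini-Hochberg adjusted p under 0.05. CPM below use library sizes scaled by TMM. They are relative values and show neither cell number nor RNA per cell. A rise of a gene cannot be told apart in them from a fall of the other transcripts, so rises and falls below are relative to the other genes.

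GUT1 lies on the minus strand of chromosome 4, from 1483780 to 1485645 (assembly ASM2700v1), as a single coding exon of 1866 bp. Its counts were 275, 349 and 129 in replicates 1, 2 and 3 without nitrogen, against 236, 159 and 156 with nitrogen. Scaled for depth, GUT1 had 958, 882 and 1026 CPM without nitrogen, against 537, 548 and 507 CPM with nitrogen. The lowest library without nitrogen thus lay well above the highest with nitrogen, and the shallow replicate 3 was the highest of all. The means were 955 ± 72.2 CPM without nitrogen and 530.3 ± 21.3 CPM with nitrogen (SD, n = 3 each).

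The log2 fold change of GUT1, without minus with nitrogen, was 0.84 ± 0.14 (SE; adjusted p = 2.39e-07, edgeR). The SE of this test draws almost wholly on the trend over all genes, so the spread of GUT1 itself was also computed. From the log2 CPM of its own libraries the difference was 0.85 ± 0.072 (SE, n = 3 each). The libraries of GUT1 scattered by 7.56% of the mean without nitrogen and 4.02% with nitrogen, where counting error alone gives 6.89% and 7.51%. Replicates of GUT1 therefore varied about as much as counting error, but 3 libraries each are too few to tell whether there was added spread. An exact permutation test of the CPM gave a two-sided p = 0.1, the smallest that 3 libraries against 3 allow. Without that scaling, GUT1 took 0.0908%, 0.0882% and 0.101% of all counts without nitrogen, against 0.0543%, 0.0526% and 0.0486% with nitrogen. The exact 95% Clopper-Pearson intervals of these shares, which cover counting error only, reached down to 0.0792% in replicate 2 without nitrogen and up to 0.0616% in replicate 1 with nitrogen. The groups were therefore apart on the unscaled share too.

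GUT2 lies on the minus strand of chromosome 3, from 1101194 to 1103197, as a single coding exon of 2004 bp. Its counts were 196, 300 and 87 in replicates 1, 2 and 3 without nitrogen, against 428, 206 and 203 with nitrogen. That is 683, 758 and 692 CPM without nitrogen, against 973, 709.7 and 659 CPM with nitrogen. The libraries without nitrogen lay close together, and replicates 2 and 3 with nitrogen fell in or just under their range. Replicate 1 with nitrogen stood above all 5 other libraries.

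GUT2 averaged 711 ± 41.1 CPM without nitrogen and 781 ± 169 CPM with nitrogen (SD, n = 3 each). Its log2 fold change was -0.14 ± 0.14 (SE; adjusted p = 0.708, edgeR), with a 95% interval from -0.41 to 0.13. An exact permutation test of the CPM gave a two-sided p = 0.8. A rise of GUT2 as large as that of GUT1 lies outside this interval, while a smaller fall or rise within it was not detectable. From its own libraries the difference of log2 CPM was -0.12 ± 0.18 (SE, n = 3 each), a wider error than that of the test. The scatter of GUT2 was 5.78% of the mean without nitrogen, under its counting error of 8.15%, and 21.6% with nitrogen, over its counting error of 6.36%. Replicate 1 with nitrogen lay farthest from the others. Without it the log2 fold change was 0.063 ± 0.16 (SE; adjusted p = 0.916, edgeR), so the sign of the GUT2 difference rests on this library.

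**Figure D1:**
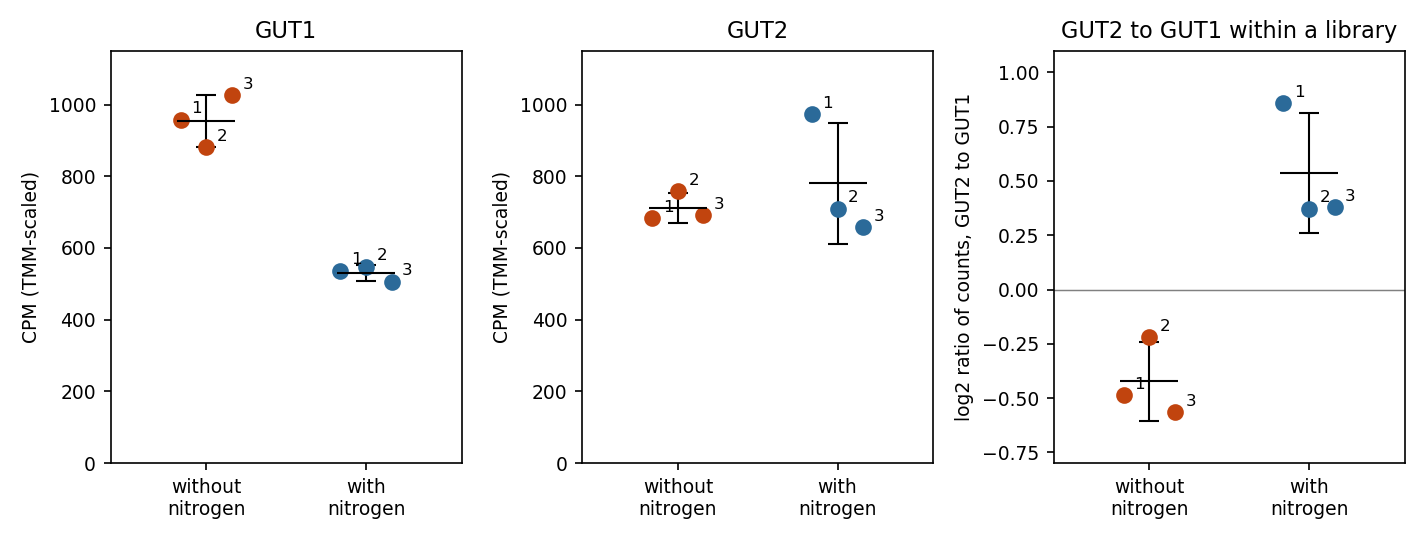
CPM of GUT1 and GUT2 (TMM-scaled) and the log2 ratio of GUT2 to GUT1 counts in each library, numbered by replicate, with the libraries without nitrogen left of those with nitrogen; bars are the mean ± SD of 3 libraries. GUT1 lies between 882 and 1026 CPM without nitrogen and between 507 and 548 with nitrogen, GUT2 overlaps, and the ratio is below 0 without nitrogen and above 0 with nitrogen.

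The ratio of both genes within a library needs no scaling between libraries. For each count of GUT1 there were 0.713, 0.860 and 0.676 counts of GUT2 in replicates 1, 2 and 3 without nitrogen, against 1.81, 1.29 and 1.30 with nitrogen. On the log2 scale, with 0.5 added to each count, the ratio of GUT2 to GUT1 was -0.42 ± 0.18 without nitrogen and 0.54 ± 0.28 with nitrogen (SD, n = 3 each). All 3 libraries without nitrogen lay below 0 and all 3 with nitrogen above it, a difference of -0.96 between the means. It stayed between -1.06 and -0.80 with any single library left out, and was -0.80 without replicate 1 with nitrogen. The ratio compares counts as they stand. Per kilobase of coding sequence, the level of GUT1 was 512 CPM per kb without nitrogen and 284 with nitrogen, and that of GUT2 was 355 CPM per kb without nitrogen and 389.6 with nitrogen. Reads of this library type come from one place near the end of a transcript and do not scale with gene length, so which gene had more transcripts cannot be read from either scale.

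Both genes had high counts for this depth. By total count over the 6 libraries, GUT1 ranked 262 and GUT2 ranked 235 of 5040 genes, with 1304 and 1420 counts. By count within a library, GUT1 ranked 189, 199 and 169 without nitrogen, against 334, 351 and 367 with nitrogen. GUT1 thus stood higher in the order of genes in every library without nitrogen. GUT2 ranked 272, 235 and 268 without nitrogen, against 171, 264 and 281 with nitrogen, and its ranks overlapped.

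Among all tested genes the rise of GUT1 was large but not extreme. Its log2 fold change was above that of 97.2% of the 3330 genes, and 54 of the 122 called higher genes rose by more, which put GUT1 at rank 55 among them. By p-value GUT1 ranked 35 of all genes tested. Of the 244 genes with a mean CPM at or above that of GUT1, 37 were called higher. GUT2 lay above 34.3% of the tested genes in log2 fold change, among the many with values near 0. The median over all tested genes was -9.27e-05. Groups that did not overlap were found for 10.3% of tested genes in the direction of GUT1.

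**Figure D2:**
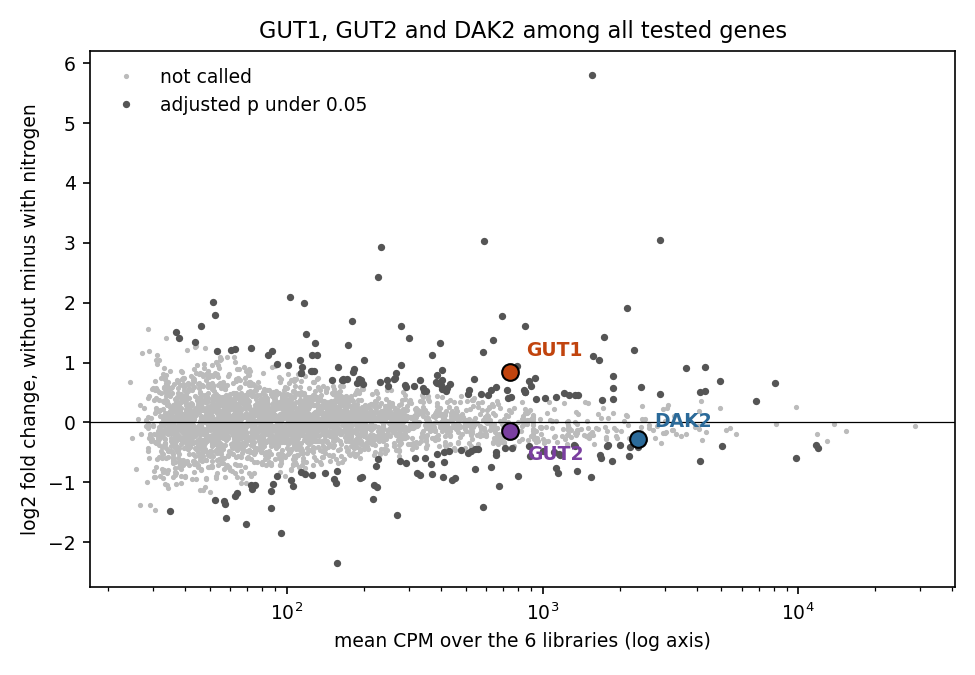
Log2 fold change (without minus with nitrogen) against mean CPM over the 6 libraries on a log axis, for the 3330 tested genes; darker points passed an adjusted p under 0.05. GUT1 stands among the called genes at 0.84, GUT2 in the uncalled bulk at -0.14, and DAK2 lies lower at -0.28 without passing.

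None of the other genes of carbon metabolism reported here was called higher without nitrogen, as for most tested genes, of which 3.66% were called higher. GPD1 and TPI1, also listed, were left out after the counts had been seen, so this does not cover them. The table gives no gene names. GUT1 and GUT2 are named by the rule that chose them, the other names were assigned to locus tags from prior knowledge, and none was checked against sequence. DAK2 (PAS_chr3_0841), the dihydroxyacetone kinase that supplies dihydroxyacetone phosphate on methanol, had 2354, 1978 and 2036 CPM without nitrogen, against 2474, 2739 and 2526 CPM with nitrogen. Its groups did not overlap, with the libraries without nitrogen lower, as for 9.91% of all tested genes. Its log2 fold change of -0.28 ± 0.12 (SE; adjusted p = 0.194, edgeR) did not pass the test. For each count of DAK2 there were 0.407, 0.446 and 0.505 counts of GUT1 without nitrogen, against 0.217, 0.201 and 0.201 with nitrogen. Relative to the kinase of the methanol route, the glycerol kinase transcript was thus higher in all 3 libraries without nitrogen. The log2 ratio of GUT1 to DAK2 was -1.15 ± 0.16 without nitrogen and -2.28 ± 0.066 with nitrogen (SD, n = 3 each).

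Of the 9 methanol utilization genes, DAK2 included, 3 fell, none rose and 6 did not pass, with a median log2 fold change of -0.31. Over all tested genes, 2.67% were called lower and 3.66% higher, and the median was -9.27e-05. The 3 that fell were FDH1, the formate dehydrogenase (-0.60 ± 0.12; adjusted p = 5.64e-05, edgeR), and the alcohol oxidases AOX2 (-0.59 ± 0.13; adjusted p = 1.69e-04, edgeR) and AOX1 (-0.43 ± 0.12; adjusted p = 0.0139, edgeR). The groups of AOX1 overlapped in CPM, though not in the unscaled share of counts. From its own libraries the difference of log2 CPM was -0.46 ± 0.22 (SE, n = 3 each), a wider error than that of the test. The AOX1 call was lost in 5 of 16 alternatives, with adjusted p from 2.32e-04 to 0.358 over all 16. Its log2 fold change was -0.43 with DESeq2 and -0.46 with the replicate block, which both lost the call. It was -0.65 without replicate 1 and -0.28 without replicate 3 of the libraries without nitrogen. Reads of AOX1 and AOX2, which are closely similar, could have been split between them by the authors' counting. All 9 values lay below 0, as did those of 1668 of the 3330 tested genes, so GUT1 stood on the other side of 0 from the whole list, and GUT2, at -0.14, fell within the list's range from -0.60 to -0.07. The difference between GUT1 or GUT2 and the list was not tested.

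Outside the list, TDH3 (PAS_chr2-1_0437), the glycolytic enzyme that oxidises glyceraldehyde-3-phosphate, the isomer of dihydroxyacetone phosphate, had a log2 fold change of 0.25 ± 0.12 (SE; adjusted p = 0.278, edgeR). That value was 0.11 without replicate 1 without nitrogen and 0.13 without replicate 1 with nitrogen. The log2 ratio of GUT1 to TDH3 was -2.47 ± 0.25 without nitrogen and -3.08 ± 0.25 with nitrogen (SD, n = 3 each), and it did not overlap, though the gap between the closest libraries was only 0.11. MXR1 (PAS_chr4_0487), the activator of methanol genes, had a log2 fold change of 0.12 ± 0.25 (SE; adjusted p = 0.882, edgeR), with a 95% interval from -0.36 to 0.61 that reaches into that of GUT1. It moved to 0.0041 without replicate 3 and 0.32 without replicate 2 of the libraries without nitrogen, to 0.0097 without replicate 1 with nitrogen, and to 0.59 with all libraries thinned to the smallest total, and passed under none of these.

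**Figure D3:**
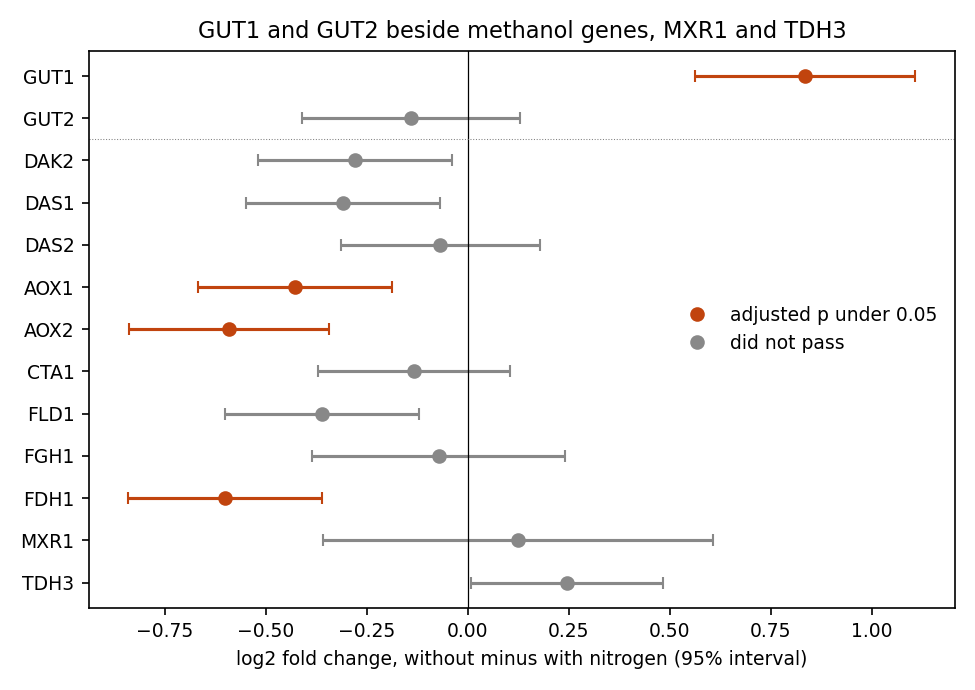
Log2 fold change (without minus with nitrogen) with its 95% interval for GUT1, GUT2, the 9 methanol utilization genes, MXR1 and TDH3; coloured points passed an adjusted p under 0.05. GUT1 is the only called value above 0 in the plot, while FDH1, AOX2 and AOX1 passed below 0.

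The surroundings of both genes were looked at because 3' end reads of one gene can be counted for a neighbour. The 3' side of GUT1 held few reads. PAS_chr4_0782, on the same strand 161 bp beyond the end of GUT1, had 4, 5 and 5 counts without nitrogen, against 20, 5 and 7 with nitrogen, and was too low to be tested. PAS_chr4_0781, the next gene on that side, had 15, 6 and 2 counts without nitrogen, against 12, 17 and 8 with nitrogen, and was too low as well. Whether reads of a neighbour entered the GUT1 count was not tested. On its 5' side, GUT1 shares a gap of 1366 bp between coding regions with PAS_chr4_0784, which is read in the opposite direction, away from GUT1. PAS_chr4_0784 had 619.8, 490.2 and 469 CPM without nitrogen, against 318, 365 and 347 CPM with nitrogen, without overlap. Its log2 fold change was 0.63 ± 0.16 (SE; adjusted p = 0.00259, edgeR).

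The next gene on that side, PAS_chr4_0785, was also higher, at 9896 ± 568 CPM without nitrogen and 6260.3 ± 328 CPM with nitrogen (SD, n = 3 each). Its log2 fold change was 0.66 ± 0.12 (SE; adjusted p = 4.38e-06, edgeR). GUT1 and these neighbours made a run of 3 adjacent genes called higher. Over the whole table there were 11 adjacent pairs of called genes, 8 of them in one direction. The run holding GUT1 was the 1 run of 3 or more genes called in one direction. Of all tested genes 6.34% were called, but pairs and runs were counted along all listed genes, with untested genes taken as not called. The share called is therefore lower along that order. How many such pairs and runs would arise by chance was not tested. The sources used here name no function for these neighbours.

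GUT2 had no called gene beside it. PAS_chr3_0578 is read toward GUT2 from its 3' side, and their coding regions end 67 bp apart. PAS_chr3_0578 had 491, 528 and 509 CPM without nitrogen, against 591, 475 and 302 CPM with nitrogen, a log2 fold change of 0.14 ± 0.15 (SE; adjusted p = 0.740, edgeR). Like GUT2, it was highest in replicate 1 with nitrogen. The strand setting of the counting is not given in the sources used here, and whether reads of this neighbour entered the GUT2 count was not tested. PAS_chr3_0581, the next listed gene on the 5' side, had a log2 fold change of -0.03 ± 0.27 (SE; adjusted p = 0.966, edgeR).

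**Figure D4:**
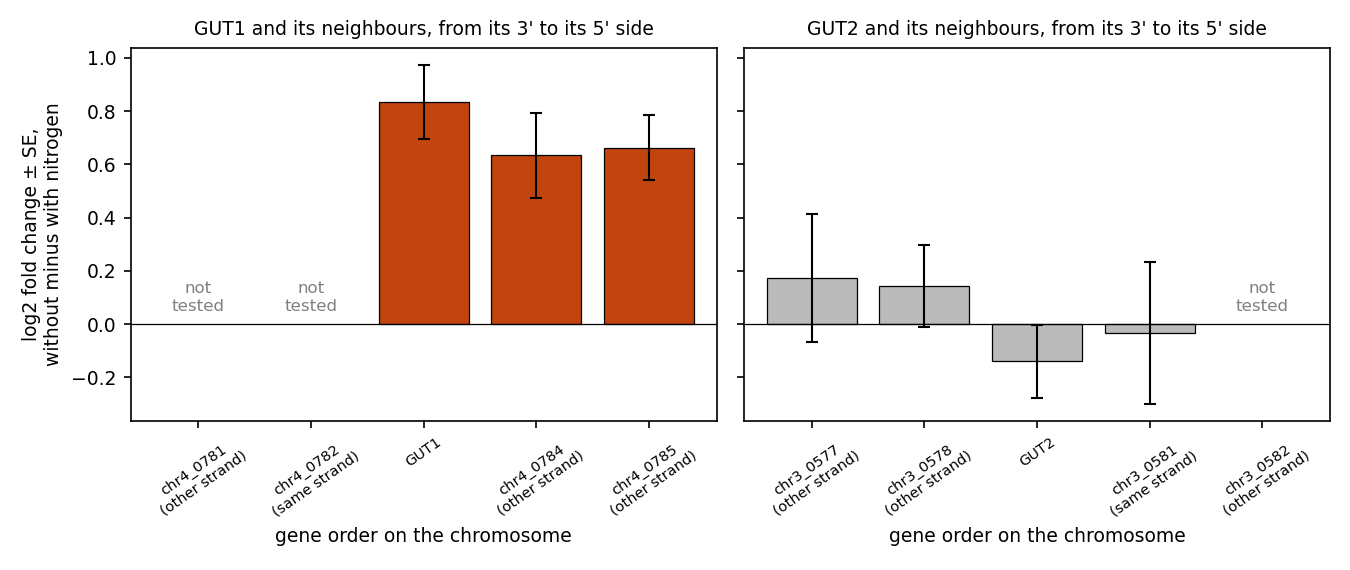
Log2 fold change ± SE (without minus with nitrogen) of GUT1, GUT2 and the next listed genes on each side, in chromosome order from the 3' to the 5' side; coloured bars passed an adjusted p under 0.05. GUT1 and both neighbours on its 5' side were called higher (0.84, 0.63 and 0.66), and no gene around GUT2 was called.

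The genes most like GUT1 across the 6 libraries, by Pearson's r of log2 CPM among 2668 other genes with a mean of at least 50 CPM, were PAS_chr1-1_0030 (r = 0.991), PAS_chr4_0514 (r = 0.989) and PAS_chr1-1_0341 (r = 0.988). With 6 libraries in 2 groups, such an r mostly says that a gene separates the groups as GUT1 does. All 3 were called higher, with larger log2 fold changes than GUT1. PAS_chr4_0514 had 3386 ± 49.2 CPM without nitrogen and 905 ± 23.5 CPM with nitrogen (SD, n = 3 each), which is a log2 fold change of 1.90 ± 0.13 (SE). PAS_chr1-1_0341 was closest to GUT1 in level, at 929 ± 41.0 CPM without nitrogen and 356 ± 32.3 CPM with nitrogen, a log2 fold change of 1.37 ± 0.15 (SE).

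For GUT2 the closest were PAS_chr4_0661 (r = 0.983), PAS_chr2-1_0864 (r = 0.955) and PAS_chr1-1_0480 (r = 0.946), and none of them passed the test. What they shared with GUT2 was their highest value in replicate 1 with nitrogen. PAS_chr4_0661 had 122, 162 and 127 CPM without nitrogen, against 282, 138 and 133 CPM with nitrogen. GUT1 and GUT2 themselves had r = -0.30 over the 6 libraries. None of the 6 locus tags has a named function in the sources used here.

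The call of GUT1 passed under all 16 alternatives, which changed the scaling, the test, the filter, the depth or the libraries used. Over them its log2 fold change ran from 0.79 to 0.90 and its adjusted p from 8.61e-08 to 6.57e-05. Without the shallow replicate 3 without nitrogen it was 0.79 ± 0.15 (SE; adjusted p = 8.01e-06, edgeR). GUT2 passed under none of the 16, with a log2 fold change from -0.25 to 0.063.

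**Figure D5:**
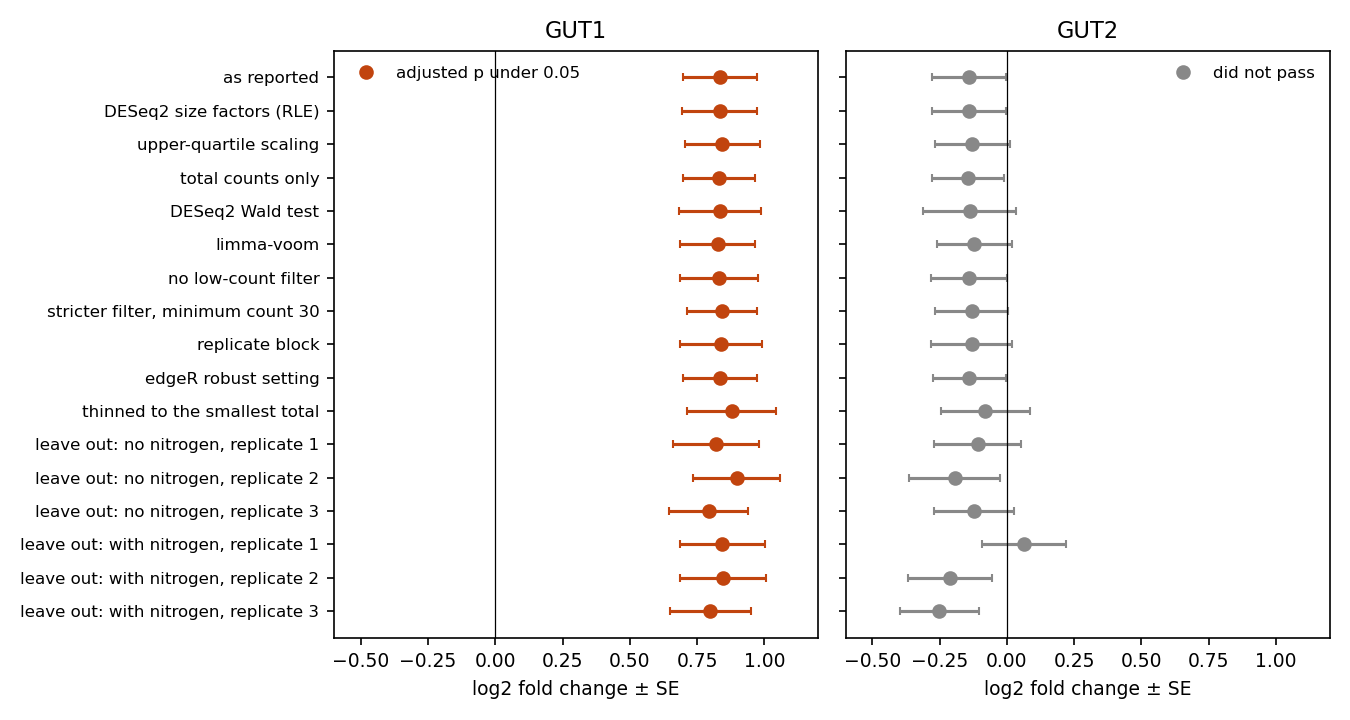
Log2 fold change ± SE of GUT1 and GUT2 (without minus with nitrogen) as reported and under each of 16 alternatives; coloured points passed an adjusted p under 0.05. GUT1 stays between 0.79 and 0.90, and GUT2 lies below 0 except without replicate 1 of the libraries with nitrogen, at 0.063.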

How the data were processed

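The authors deposited 1 table of raw read counts per gene for the 6 libraries. Per the labels' protocols, a QuantSeq forward kit, which reads near the poly(A) tail, was used on 300 ng of total RNA. The submitters' processing notes name Trimmomatic, HISAT2 and featureCounts, without versions, and their settings are not known here. All 5040 locus tags matched the RefSeq table of ASM2700v1 (strain GS115). Every gene length given with the deposited counts divides by 3, as for coding sequence alone. Reads lying wholly in a 3' untranslated region would then be missing.

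The analysis used R 4.3.3 and edgeR 4.0.16: filterByExpr (minimum count 10), TMM, quasi-likelihood F-test, two-sided, Benjamini-Hochberg over 3330 genes. SE is the size of the log2 fold change divided by the square root of F; estimated prior degrees of freedom were 985. Alternatives used DESeq2 1.42.0 and limma 3.58.1 (voom). The test was checked on simulated data. The members and lists were chosen with earlier results of these data known. Named genes were GUT1, GUT2, the listed pathway genes, the neighbours on each side, and the 3 genes most like each member. Pathway gene names rest on prior knowledge. GPD1 and TPI1, also listed, are not reported; they were left out after the counts had been seen.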

Additional observations from a re-analysis of the deposited data

How the results depend on the processing

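Of 16 alternatives, all kept the direction and call of GUT1 and none called GUT2. Leaving out 1 library gave log2 fold changes of 0.79 to 0.90 for GUT1 and -0.25 to 0.063 for GUT2, the last, above 0, without replicate 1 with nitrogen. The difference in the ratio of GUT2 to GUT1 ran from -1.06 to -0.80 with a library left out. With the replicate block, GUT1 had 0.84 (edgeR adjusted p = 3.01e-06), GUT2 -0.13 (edgeR adjusted p = 0.789), and 168 genes were called; deviations of same-numbered libraries correlated at -0.067, -0.0321 and -0.0579, so shared numbers gave no sign of pairing. Over all genes, 211 were called, against 119 with DESeq2, 123 with libraries thinned to 127303 counts, and 129 to 183 with a library left out. The loss exceeded 1.5 times without replicate 1 (132) or 2 (129) without nitrogen and without replicate 2 with nitrogen (132). The causes were not tested. Of 176 values of 11 other named genes, 160 kept direction and call, 5 lost the call (AOX1), 9 gained it (FLD1 and DAS1), and 2 turned sign (FGH1). FGH1 was lowest at -0.25 and highest at 0.059 among the fits on 5 libraries; it was 0.059 without replicate 3 with nitrogen and 0.0082 without replicate 3 without nitrogen. Replicate 3 without nitrogen had the fewest counts of both members, 129 of GUT1 and 87 of GUT2. The scatter of GUT2 was nonetheless larger with nitrogen, at 21.6% of the mean against 5.78% without nitrogen.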
